A study of Mus musculus with 4 samples.

Results

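The genes described here are 52 genes of nuclear factor kappa B (NF-kB) signalling, inflammatory chemokines and cytokines and the acute phase response, taken by gene symbol from the mRNA tables. Of the 52, 50 were among the 16211 genes listed, and 48 had at least 100 reads in at least 1 library. The interleukin 1 genes Il1a and Il1b were not listed, and Cxcl2 and Il6 stayed under 100 reads. The cells were tumor-initiating hepatocytes of strain C57BL/6, a liver cell type named for its capacity to start tumors. One library came from cells with a control short hairpin RNA and the other from cells with a hairpin against the long noncoding RNA H19. Both groups were the same cells apart from the hairpin, as far as the labels say. Whether the cells were 1 line, a pool or a clone, and the age of the mice, were not given in the sources used here. Each condition had 1 mRNA library, so no difference below has a replicate check or a p-value, and the intervals given cover counting error only.

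Gene counts summed to 33578868 reads in the control and 34061172 under the H19 knockdown label. H19 itself had 43 and 40 reads, a ratio of 0.931 with a counting interval of 0.589 to 1.46, so the targeted RNA did not bear out the label, and every direction below refers to the label alone. Hepatocyte and duct markers were mixed in these cells: in the control the hepatocyte genes Apob and Hnf4a had 37279 and 2373 reads and albumin (Alb) had 129, while Cps1, Tat and Ahsg were not listed, and the duct and progenitor keratin Krt19 had 29919. Neither marker list had 1 direction. The 10 hepatocyte markers listed of 13 summed to 43056 and 36104 reads, a sum that Apob carried (30259 under the knockdown label, ratio 0.811), while Hnf4a and Cebpa were higher at 1.16 and 1.27. The 8 of 8 duct and progenitor markers summed to 126894 and 137005, a sum that Krt19 raised (39984 under the label, ratio 1.33), while Krt7 had 6162 and 4194 reads (0.680, with 0.268% of genes of its depth as low). In a bulk sample, fewer cells of a type and less RNA per cell cannot be told apart. The 25 listed mitochondrially encoded genes, of which 13 had at least 100 reads, had a median log2 ratio of 0.35, with 12 of the 13 above 0, and their part in the results below was not tested. Of 16 macrophage markers 6 were listed, with 540 and 601 reads in sum, and they ran both ways. Mrc1 had 220 and 363 reads (1.65, 1.39 to 1.96) and Cd68 118 and 140, whereas Lyz2 had 132 and 53 (0.406, 0.286 to 0.556, with 0.0203% of genes of its depth as low), Csf1r 34 and 14, Ptprc 22 and 17 and Cd74 14 and 14. The markers Adgre1, Itgam, Marco and C1qa were not listed. Of 8 neutrophil markers 0 were listed, of 13 lymphocyte markers 1 (Trac, 26 and 13 reads), of 9 endothelial markers 2 (72 and 73 reads in sum) and of 10 stellate cell and fibroblast markers 4 (112 and 79 reads in sum). The part of such cells in the inflammatory genes was not tested.

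NF-kB is a family of dimeric transcription factors that inhibitory I-kappa-B proteins hold in the cytoplasm. Ligands of the tumor necrosis factor, interleukin 1 and Toll-like receptors activate the I-kappa-B kinase, which marks the inhibitors for degradation and lets the dimers enter the nucleus. Their targets include chemokines that attract leukocytes, adhesion molecules, and several of the pathway's own inhibitors, which close a negative feedback loop. In hepatocytes, NF-kB acts together with STAT3, the transcription factor downstream of interleukin 6, on the acute phase genes, whose products are secreted into blood during inflammation.

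As a group the genes had lower counts in the library labelled H19 knockdown. Of the 48 with at least 100 reads, 36 had a log2 ratio below 0, which is 75% against 48.1% of all 11412 genes with that many reads. Their median log2 ratio was -0.15 (a ratio of 0.903), against 0.01 for all genes. A ratio at least 1.5-fold lower was found for 7 of them (Ch25h, Saa1, Il13ra2, Ccl20, Saa2, Icam1 and Saa3), which is 14.6% against 1.39% of all genes. None was at least 1.5-fold higher, against 1.31% of all genes. At least 2-fold lower were 3, Ch25h, Saa1 and Il13ra2, against 0.105% of all genes. These 3 had been singled out by an earlier look at the same data. Without them 4 of 45 genes, or 8.89%, were at least 1.5-fold lower and the median was -0.14. The other 45 were also chosen with earlier results of these data known, so none of these shares is independent of that choice.

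The counting interval lay wholly below a ratio of 1 for 28 genes (58.3%) and wholly above it for 5 (10.4%). In all genes these shares were 24.1% and 28.0%. The ratios were also read against genes of like depth, in classes of 100 to 1000, 1000 to 10000 and 10000 or more reads. In their own class 16 of the 48 genes, or 33.3%, lay among the lowest 5% of ratios, and 2 genes, Cx3cl1 and Tnfaip2, lay among the highest 5%. All 8 genes with 10000 or more reads had a ratio below 1, as did 16 of 23 with 1000 to 10000 and 12 of 17 with 100 to 1000. In all genes of these classes 48.6%, 44.8% and 52.2% were below 1.

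**Figure D1:**
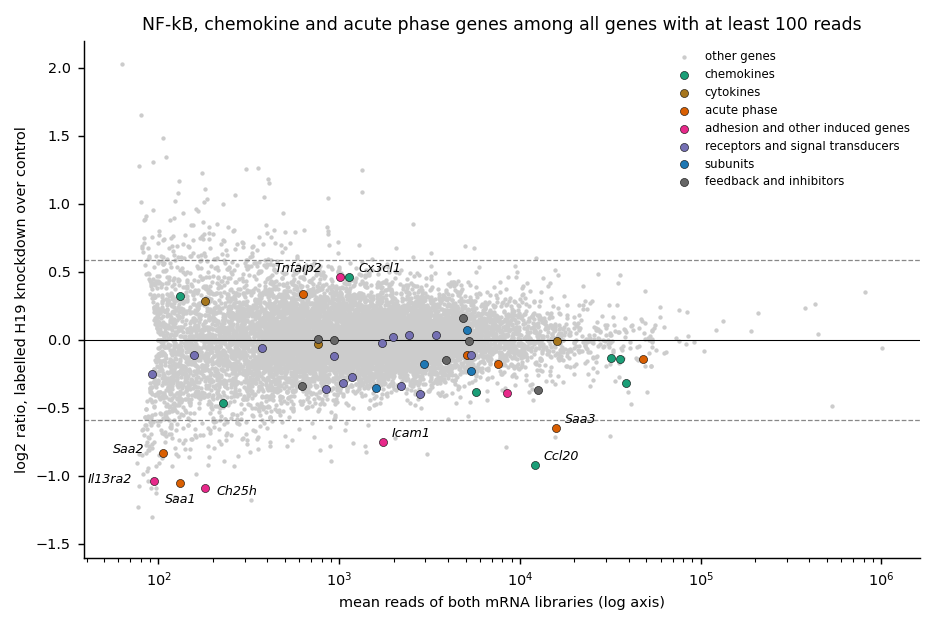
Log2 ratio, H19 knockdown label over control (vertical axis) against the mean read count of both mRNA libraries (log axis), for the 11412 genes with at least 100 reads in 1 library. Colored points are the 48 described genes by role, grey points are other genes, and dashed lines mark a 1.5-fold ratio. Ccl20, Saa3 and Icam1 lie low among genes with like read counts (0.191%, 0.956% and 0.117% as low), and no described gene lies above the upper line.

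Promoter sequences were compared because binding of NF-kB to short kappaB elements is what defines many of these genes as targets. RefSeq promoter windows on GRCm38.p6, each running from 250 bases before to 50 bases after a transcription start, were found for 40 of the 52 genes, with 52 windows in all. The kappaB consensus was found on either strand in 20 of the 52 windows (38.5%), against 8.46% of all 32851 windows. In windows of genes with at least 100 reads the share was 10.4%. The 20 windows belong to 17 genes, and some windows of the same gene overlap, so windows are not independent units. The shorter letters GGGANNTTC were in 17.3% against 3.94% of all windows, and GGGNNTTCC in 19.2% against 5.82%. Both overlap the consensus, so the 3 shares are not independent. The AP-1 letters TGAGTCA or TGACTCA were in 19.2% of the windows against 5.20%. The STAT letters TTCNNNGAA were in 11.5% against 8.30%, the C/EBP letters TTGCNNCAA in 3.85% against 2.08% and the interferon-response letters GAAANNGAA in 9.62% against 8.56%. These matches describe letters and not binding.

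**Figure D2:**
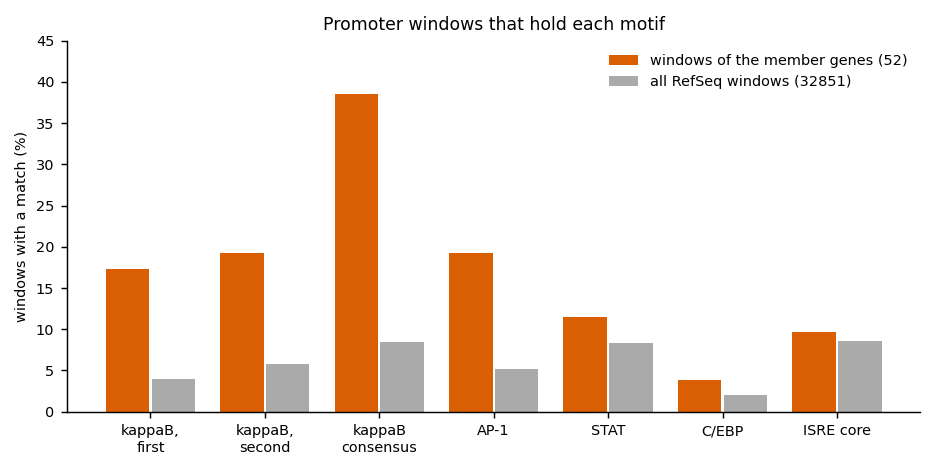
Share of RefSeq promoter windows (percent, vertical axis) that hold each motif on either strand, for the 52 windows of the described genes (orange) and all 32851 windows (grey). kappaB first and second are the letters GGGANNTTC and GGGNNTTCC. The kappaB consensus stands at 38.5% against 8.46%, while the bars of the STAT, C/EBP and interferon-response (ISRE core) letters lie close together.

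The stretches below are shown because they carry the kappaB letters of a chemokine with a large difference (Ccl20), of a pair of neighbouring chemokines that differ widely in abundance (Cxcl1, Cxcl2), and of the pathway's own subunit and inhibitor genes. Capitals mark all kappaB matches, and each stretch ends before the transcription start.
Ccl20 chr1:83116656-83116725 (+): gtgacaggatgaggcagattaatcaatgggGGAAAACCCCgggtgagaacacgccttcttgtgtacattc
Cxcl1 chr5:90891144-90891214 (+): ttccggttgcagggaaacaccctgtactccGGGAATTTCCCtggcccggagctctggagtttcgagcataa
Cxcl2 chr5:90903772-90903842 (+): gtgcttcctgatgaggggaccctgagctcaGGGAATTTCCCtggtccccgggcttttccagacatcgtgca
Nfkb2 chr19:46304668-46304736 (+): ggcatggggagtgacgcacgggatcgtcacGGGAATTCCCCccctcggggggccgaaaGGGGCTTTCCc
Nfkbia chr12:55492648-55492790 (-): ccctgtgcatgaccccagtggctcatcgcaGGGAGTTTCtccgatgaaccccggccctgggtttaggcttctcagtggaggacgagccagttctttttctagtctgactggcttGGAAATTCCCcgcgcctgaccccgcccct
Nfkbie chr17:45555564-45555633 (+): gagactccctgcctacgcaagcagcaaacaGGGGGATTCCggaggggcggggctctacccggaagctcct
Tnfaip3 chr10:19015411-19015565 (-): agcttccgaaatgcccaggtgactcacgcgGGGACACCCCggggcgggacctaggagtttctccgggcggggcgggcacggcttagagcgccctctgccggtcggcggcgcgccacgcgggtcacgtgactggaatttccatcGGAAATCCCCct
Tnip1 chr11:54962957-54963028 (-): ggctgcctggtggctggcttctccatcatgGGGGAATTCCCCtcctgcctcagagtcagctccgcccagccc

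Genes with and without a match had overlapping ratios. The 16 genes with at least 100 reads and any kappaB match had a median log2 ratio of -0.10, from -0.92 to 0.46, and the 20 without one had -0.13. Of the 7 genes at least 1.5-fold lower only Ccl20 had a match, and Icam1, Saa1, Saa2, Saa3, Ch25h and Il13ra2 had none in this window. The matches of Cxcl1 and Cxcl2 hold the same letters, starting at 71 and 97 bases before the start, although their read counts were far apart (below). Icam1 held the STAT letters 42 bases before its start, in capitals in the stretch from 72 to 4 bases before it:
Icam1 chr9:21015868-21015936 (+): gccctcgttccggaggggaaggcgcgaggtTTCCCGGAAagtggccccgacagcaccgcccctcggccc

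Chemokines, the secreted attractants of leukocytes, were among the most counted genes of these cells. In RPKM, that is reads scaled to transcript length and library size, the control level was 1555 for Ccl2, 1163 for Cxcl1, 596 for Cxcl5, 330 for Ccl20 and 239 for Ccl7. The other 4 chemokines were far lower, with Cx3cl1 at 8.54, Cxcl10 at 3.16, Cxcl16 at 2.90 and Cxcl2 at 0.857. By read count Ccl2 ranked 57, Cxcl1 70 and Cxcl5 83 among the 16211 genes of the control.

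**Figure D3:**
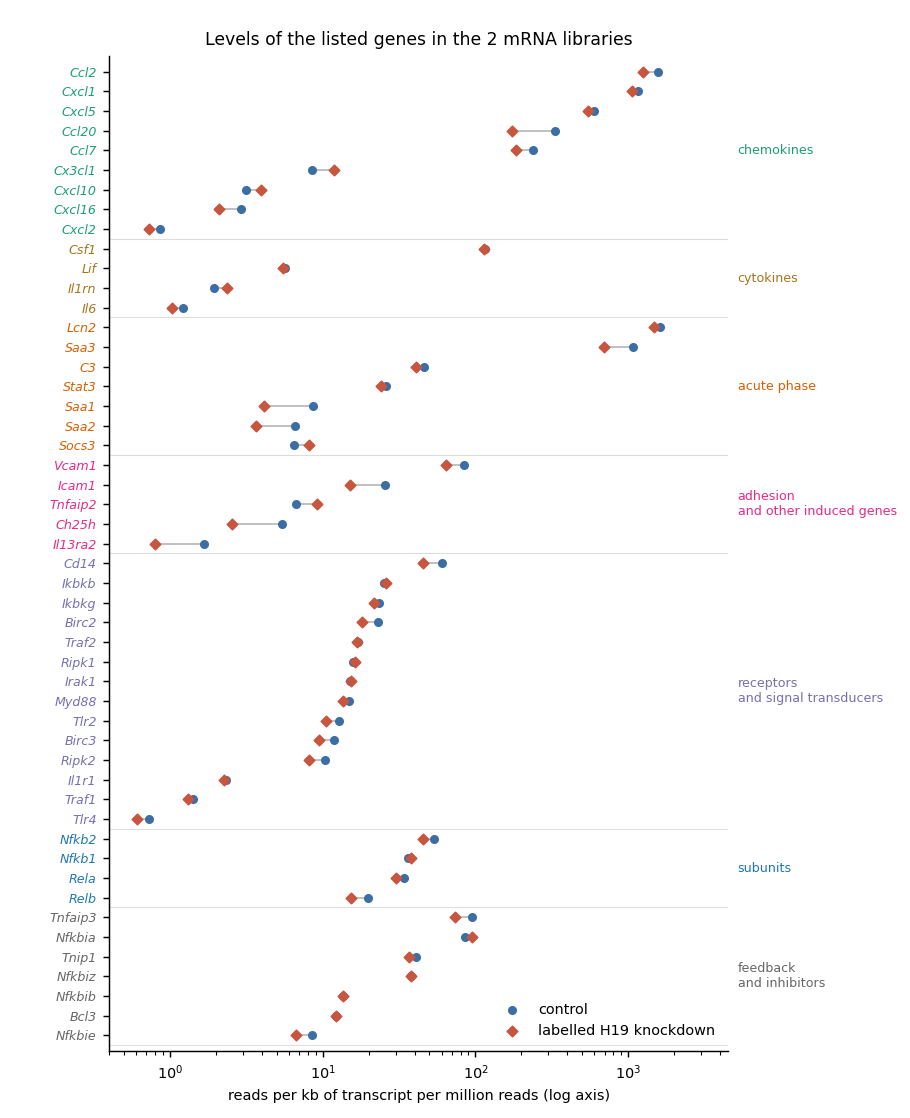
Level of each of the 50 listed genes in the control library (blue circles) and the library labelled H19 knockdown (red diamonds), in reads scaled to transcript length and library size (RPKM, horizontal log axis), grouped by role. Each point is 1 library. Lcn2, Ccl2, Cxcl1 and Saa3 exceed 1000 in the control, and the widest gaps between the libraries belong to Il13ra2, Ch25h, Saa1 and Ccl20.

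Ccl20, which attracts cells bearing the receptor CCR6, had the lowest ratio of the chemokines. It had 15836 reads in the control against 8349 under the knockdown label, a ratio of 0.527 (counting interval 0.513 to 0.541). Among genes with 10000 or more reads 0.191% had a ratio as low.

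The monocyte attractants Ccl2 and Ccl7 lie within 11.9 kb of each other on chromosome 11 (82035577 to 82047525, GRCm38) and had similar ratios. Ccl2 had 42728 and 34253 reads, a ratio of 0.801 (0.789 to 0.812), and Ccl7 had 6480 and 4996, a ratio of 0.770 (0.742 to 0.799). In their read classes 3.63% and 1.26% of genes had ratios as low.

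The neutrophil attractants Cxcl5, Cxcl1 and Cxcl2 lie in a cluster of 147 kb on chromosome 5 (90759298 to 90905938) and differed less between the libraries. Cxcl3, from the further lists and named after its value was seen, lies in the same span. It went the other way, with 428 and 531 reads (1.24, 1.09 to 1.41) and 11.3% of genes of its depth as high. Cxcl1 had 37460 and 33951 reads, a ratio of 0.905 (0.892 to 0.919), and Cxcl5 had 33347 and 30408, a ratio of 0.911 (0.897 to 0.925). Ratios as low were common at their depth, found in 14.9% of genes for Cxcl1 and 16.3% for Cxcl5. Cxcl2 had 53 and 45 reads, too few to tell its ratio of 0.851 from 1 (0.557 to 1.29). The cluster thus held both a highly counted and a barely counted gene with the same kappaB letters.

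The remaining chemokines had fewer reads and no common direction. Cx3cl1, a membrane-bound chemokine, was higher, with 956 and 1321 reads (ratio 1.38, interval 1.27 to 1.5), a ratio matched or exceeded by 1.04% of genes of its depth. Cxcl16, also made as a membrane-bound form, had 265 and 192 reads (0.725, 0.598 to 0.875). The interferon-inducible Cxcl10 had 117 and 146 reads, and its interval of 0.971 to 1.6 included 1. Over the 8 chemokines with at least 100 reads, 6 were below a log2 ratio of 0 at a median of -0.23.

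Cytokine genes other than chemokines were mostly level between the libraries. Csf1, the growth factor of macrophages, was the most counted with 16220 and 16071 reads (ratio 0.990, 0.968 to 1.01). Lif, a cytokine of the interleukin 6 family, had 767 and 754 reads (0.982, 0.887 to 1.09), and Il1rn, the secreted antagonist of the interleukin 1 receptor, had 162 and 198 (1.22, 0.987 to 1.51). The intervals of all 3 included 1. Il6 itself had 45 and 38 reads, and its ratio of 0.847 could not be told from 1 at this depth (0.533 to 1.33). The median log2 ratio of the 3 genes with at least 100 reads was -0.01, while their mean was 0.08.

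Acute phase genes held the clearest difference in the serum amyloid A genes, small apolipoproteins of inflammation. Saa3, Saa1 and Saa2 lie within 42.3 kb on chromosome 7 (46711998 to 46754313) and all had ratios under 0.65. Saa3 had 19355 and 12387 reads (0.639, 0.625 to 0.654), Saa1 had 177 and 85 (0.483, 0.366 to 0.625) and Saa2 had 136 and 76 (0.561, 0.416 to 0.745). Less than 1% of genes of like depth had ratios as low, 0.956%, 0.203% and 0.671% respectively. The coding sequences of Saa1 and Saa2 are identical at 95.1% of 369 aligned bases, so reads could be split between them and their separate values are uncertain, whereas Saa1 and Saa3 share 79.2%.

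Other acute phase members differed less. Lcn2, lipocalin 2, which binds bacterial siderophores, and the most abundant gene described here at 1618 RPKM in the control, had 50038 and 45505 reads (0.908, 0.897 to 0.920). Complement C3 had 7981 and 7054 reads (0.883, 0.855 to 0.912), and Stat3 had 5284 and 4912 (0.929, 0.893 to 0.966). Such ratios were common among genes of their depth, with 15.7%, 12% and 22.6% as low. Socs3, the feedback inhibitor that STAT3 induces, was higher, with 557 and 704 reads (1.26, 1.13 to 1.41) and 9.66% of genes of its depth as high. In this role group 6 of 7 genes were below 0 (85.7% against 48.1% of all genes). Their median log2 ratio was -0.18, against a mean of -0.37 that the 3 Saa genes carry.

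Adhesion molecules and other inducible genes had the lowest median of the role groups, -0.75 over 5 genes. That value rests in part on Ch25h and Il13ra2, which had been singled out earlier, and without them the median of Icam1, Vcam1 and Tnfaip2 was -0.39. Icam1, which leukocyte integrins bind, had 2187 and 1301 reads (0.594, 0.554 to 0.637), and 0.117% of genes of its depth had a ratio as low. Vcam1, its counterpart for another integrin, had 9637 and 7339 reads (0.761, 0.738 to 0.784), with 1.04% as low. Both adhesion molecules were thus lower, Icam1 by the wider margin and with an interval that did not meet that of Vcam1.

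Ch25h, the enzyme that makes 25-hydroxycholesterol, had 248 and 116 reads (0.469, 0.372 to 0.585). Il13ra2, the decoy receptor of interleukin 13, had 128 and 62 reads (0.488, 0.351 to 0.660). Tnfaip2, a gene first found by its induction with tumor necrosis factor, went the other way, with 848 and 1165 reads (1.37, 1.26 to 1.5). Tnfaip2 lies on chromosome 12, where the median log2 ratio of 357 genes was 0.28, and with that median subtracted its log2 ratio was 0.18 in place of 0.46.

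**Figure D4:**
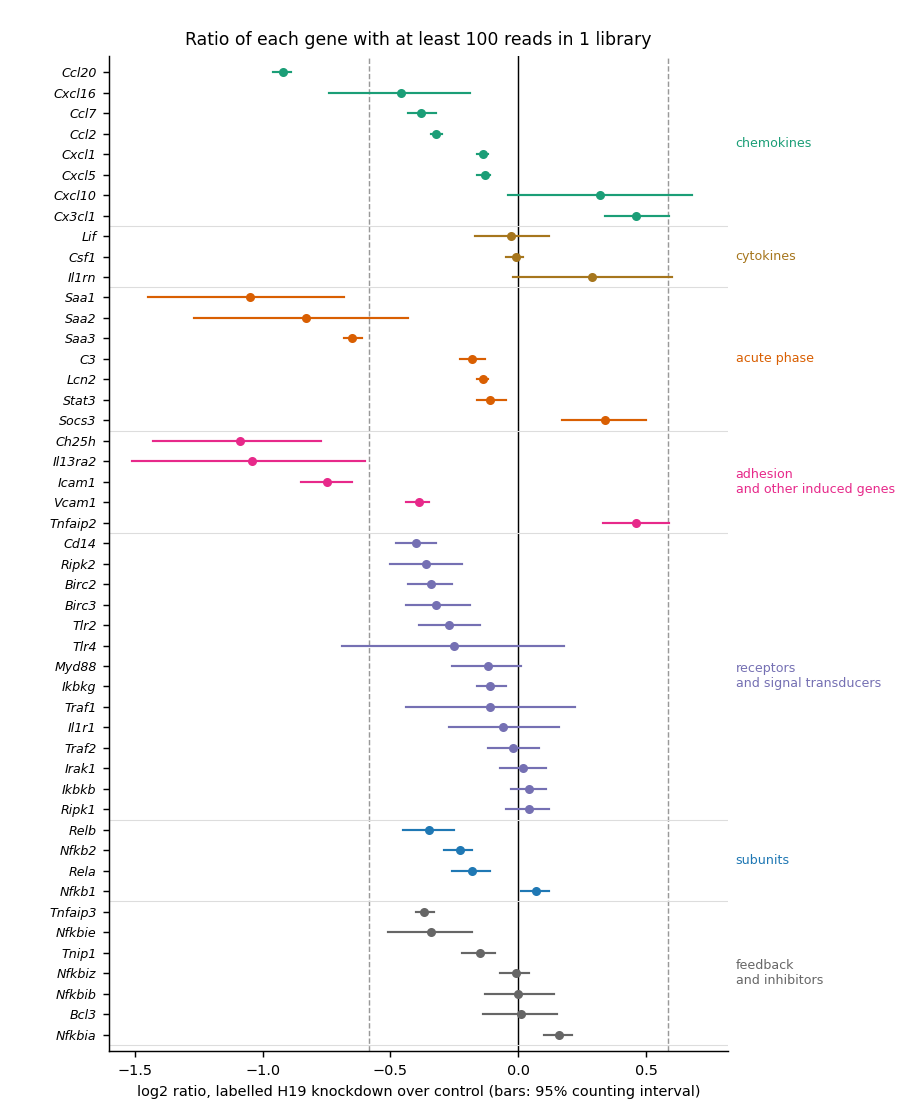
Log2 ratio, H19 knockdown label over control, for the 48 genes with at least 100 reads in 1 library, grouped by role (point: ratio, bar: 95% counting interval, dashed lines: 1.5-fold). The long bars belong to genes with few reads. In the signalling groups at the bottom every point lies between the dashed lines, and the points beyond the lower line are chemokine, acute phase and adhesion or other induced genes.

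Receptors and signal transducers had 11 of 14 genes below 0 (78.6% against 48.1% of all genes). Their median log2 ratio was -0.12, with no gene past 1.5-fold. Cd14, Birc2, Birc3 and Tlr2 still lay among the lowest 5% of ratios at their depth, with 0.921%, 1.91%, 2.73% and 4.45% of genes as low. None of the 14 lay among the highest 5%. The lowest was Cd14, the co-receptor for bacterial lipopolysaccharide, with 3189 and 2417 reads (0.757, 0.718 to 0.798). Cd14 is also a macrophage gene, and the macrophage markers ran both ways, with Lyz2 at a ratio of 0.406 and Mrc1 at 1.65. Their part in the Cd14 value was not tested. Tlr2, a receptor for bacterial lipoproteins, had 1292 and 1071 reads (0.828, 0.763 to 0.899). Tlr4, the lipopolysaccharide receptor that works with CD14, had 100 and 84 reads, and its interval of 0.620 to 1.13 included 1.

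Below the receptors, the inhibitor-of-apoptosis ubiquitin ligases and Ripk2 had the lowest ratios. Birc2 had 2441 and 1928 reads (0.789, 0.743 to 0.838) and Birc3, its neighbour on chromosome 9 and itself a known NF-kB target, had 1163 and 935 (0.803, 0.736 to 0.876). Ripk2, the kinase of the NOD receptors, had 948 and 738 reads (0.778, 0.705 to 0.857). Ripk2 lies on chromosome 4, whose 646 genes had a median of -0.17, and its log2 ratio of -0.36 was -0.19 with that median subtracted.

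The kinase subunit Ikbkb, with 3372 and 3475 reads (1.03, 0.982 to 1.08), and the regulatory subunit Ikbkg, also called NEMO, with 5527 and 5142 (0.929, 0.895 to 0.966), differed little. Chuk, the other catalytic subunit, had 5174 and 4717 reads (0.911, 0.875 to 0.948). Of the related kinases, Ikbke was at 0.890 (0.856 to 0.926) and Map3k7, also called TAK1, at 0.869 (0.824 to 0.916), while Tbk1 was at 1.07 (1.01 to 1.13) and Map3k14, also called NIK, at 1.05 (0.931 to 1.17). These 5 kinases are from the further lists and were named after their values were seen. Ikbkg shares its locus with G6pdx and Fam3a, so its reads cannot be fully told apart from theirs without strand. The adaptors and kinases Myd88, Irak1, Traf1, Traf2 and Ripk1 and the receptor Il1r1 all had ratios between 0.918 (Myd88) and 1.03 (Ripk1), with intervals that included 1. Ripk1 overlaps Serpinb6a, which had 22723 reads in the control against 2405 for Ripk1. Cxcl16, Nfkb2, Traf2, Bcl3 and Tnip1 also overlap other listed genes, of which Psd at the Nfkb2 locus had the most reads with 430 and 332.

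Of the 4 NF-kB subunits among the described genes, 3 had lower counts and 1 was close to level. The remaining subunit, Rel, is from the further lists and was named after its value was seen. It had 354 and 380 reads (1.07, 0.925 to 1.24). Relb, the activating subunit of the non-canonical branch and itself an NF-kB target, was lowest with 1783 and 1402 reads (0.786, 0.732 to 0.843), and 1.77% of genes of its depth had a ratio as low. Nfkb2, its p100 and p52 partner, had 5784 and 4928 reads (0.851, 0.819 to 0.884), and Rela, the p65 subunit of the canonical dimer, had 3135 and 2768 (0.882, 0.838 to 0.929). Such ratios were less rare at their depth, with 6.92% of genes as low for Nfkb2 and 11.8% for Rela. Nfkb1, the p105 and p50 subunit, had 4997 and 5233 (1.05, 1.01 to 1.09). The intervals of Relb and Nfkb1 did not overlap. The non-canonical pair Relb and Nfkb2 had the lowest ratios, but the interval of Nfkb2 overlapped that of Rela. Nfkb2 and Rela lie on chromosome 19, whose 400 genes had a median log2 ratio of -0.09, and the median of the 4 subunits was -0.21, or -0.11 with chromosome medians subtracted.

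Of the 7 inhibitors and feedback genes, 3 had intervals wholly below a ratio of 1 (42.9% against 24.1% of all genes). Another 3 had intervals that included 1. The interval of 1 gene, Nfkbia, lay wholly above it (14.3% against 28.0%). Tnfaip3, also called A20, a ubiquitin-editing enzyme that shuts off NF-kB signalling, had 14255 and 11050 reads (0.774, 0.755 to 0.794), with 2.29% of genes of its depth as low. Nfkbie, I-kappa-B epsilon, had 694 and 547 reads (0.788, 0.703 to 0.882), and Tnip1, which binds A20, had 4119 and 3714 (0.901, 0.861 to 0.942). Ratios as low were found in 10.6% of genes at the depth of Nfkbie and 15.2% at that of Tnip1. Tnfaip3, Nfkbie and Tnip1 all carry kappaB letters in the stretches printed above. Nfkbia (ratio 1.11) and Bcl3 (1.00) also had kappaB matches, so the letters were not particular to the lower genes.

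The 4 feedback genes other than Tnfaip3, Nfkbie and Tnip1 had ratios of 0.991 or higher. Nfkbiz, a nuclear I-kappa-B protein, had 5270 and 5230 reads (0.991, 0.954 to 1.03), Nfkbib had 938 and 942 (1.00, 0.916 to 1.10) and Bcl3, another nuclear member, had 760 and 764 (1.00, 0.907 to 1.11). Nfkbia, the classical I-kappa-B alpha, was higher with 4566 and 5094 reads (1.11, 1.07 to 1.16), and 19.3% of genes of its depth were as high. Nfkbia lies on chromosome 12 like Tnfaip2, and with the chromosome median subtracted its log2 ratio was -0.12 in place of 0.16, so its direction depended on that step. With that step the other 6 inhibitors and feedback genes were also below 0, from -0.43 (Tnfaip3) to -0.02 (Nfkbiz). The median log2 ratio of the group was -0.01, or -0.12 with chromosome medians subtracted.

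Further genes of the pathway were counted in 5 lists of 161 genes, of which 130 were listed and 104 had at least 100 reads. Their median log2 ratio was -0.07, with 64 of 104 below 0 (61.5% against 48.1% of all genes). At least 1.5-fold lower were 4 (3.85% against 1.39%), and at least 1.5-fold higher were 2 (1.92% against 1.31%). They thus lay closer to all genes than the 48 did. The difference between both sets was not tested.

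In the list of other NF-kB signalling genes 22 of 37 were below 0 (59.5% against 48.1% of all genes) with a median of -0.03. Tnip3, a relative of Tnip1 that also binds A20, had the lowest ratio with 999 and 570 reads (0.570, 0.513 to 0.632), followed by the kinase Map3k8 at 0.700, while Tab3, an adaptor of the TAK1 kinase, was at 1.24. Of the other cytokine and innate receptors 12 of 15 were below 0 (80.0% against 48.1%) with a median of -0.11. The lowest were the oncostatin M receptor Osmr at 0.827, Tlr5 at 0.856 and Il6st, the shared receptor of the interleukin 6 family, at 0.859.

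In the list of other chemokines 5 genes had at least 100 reads, too few to give the family a direction. Of these 4 were above 0 and 1 below (against 48.1% of all genes below 0), with a median of 0.31. The intervals of 3 lay wholly above a ratio of 1, while that of Cklf (1.10, 0.915 to 1.31) included 1. Ccl9, an attractant of myeloid cells, had 566 and 1170 reads (2.06, 1.87 to 2.29), Ccl17 was at 1.34 and Ccl25 at 0.776. A lower count was thus not shared by all chemokine genes. The 8 listed with under 100 reads ran both ways, with Cxcl9 at 0.400 (0.131 to 0.914) and Cxcl12 at 1.61 (0.986 to 2.73). Of 26 names in that list 13 were not listed, among them Ccl3 and Ccl4.

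Among other NF-kB targets 16 of 25 were below 0 (64.0% against 48.1% of all genes) with a median of -0.09. Csf2, the granulocyte and macrophage growth factor GM-CSF, had 361 and 218 reads (0.604, 0.508 to 0.716), Zc3h12a, a nuclease that degrades cytokine mRNAs, was at 0.805 and Nos2, inducible nitric oxide synthase, was at 1.25. Tnf was not listed. Of the other acute phase and STAT3 pathway genes 13 of 22 were below 0 (59.1% against 48.1%) with a median of -0.11. Hemopexin (Hpx) had 389 and 229 reads (0.589, 0.497 to 0.694) and complement C4b was at 0.611, a value that near-identical C4a may share in. C-reactive protein (Crp) had 254 and 408 reads (1.6, 1.37 to 1.88), so acute phase genes lay past 1.5-fold in both directions.

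**Figure D5:**
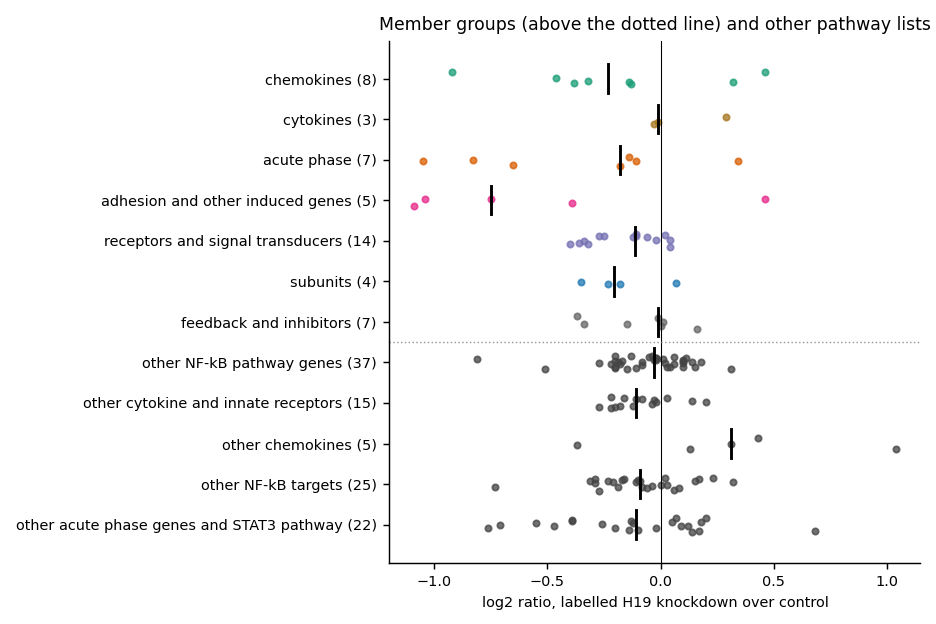
Log2 ratio, H19 knockdown label over control (horizontal axis) for each gene with at least 100 reads, by list, with the number of genes in parentheses. Points are genes, spread vertically only for visibility, and black bars are medians. The median of the adhesion and other induced genes is lowest at -0.75, and that of the other chemokines is highest at 0.31.

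Small RNA libraries of the same 2 conditions, again 1 per condition, held 7105897 and 10483889 reads on miRNA arms and gave the miRNAs most often tied to NF-kB. MiR-146a and miR-155 are induced by NF-kB, and the miR-146 family targets Irak1 and Traf6 in a feedback loop. Their mature sequences are shown with the seed, bases 2 to 8, in capitals, since miR-146a and miR-146b share it.
miR-146a-5p: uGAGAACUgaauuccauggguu
miR-146b-5p: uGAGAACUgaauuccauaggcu
miR-155-5p: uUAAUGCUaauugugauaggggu

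The arms miR-155-5p and miR-146a-5p were close to level between the small RNA libraries. MiR-155-5p had 13058 and 17605 reads, a scaled ratio of 0.946 (0.925 to 0.968), and miR-146a-5p had 3208 and 4349 (0.951, 0.909 to 0.996). MiR-146b-5p had 1451 and 1338 reads (0.647, 0.600 to 0.698), below the 5th percentile of log2 ratios over 295 arms, which was -0.55 against -0.63 for this arm.

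The value of miR-146b-5p is uncertain, because 19 and 23 of its reads, 1.31% and 1.72%, matched the mature sequence exactly. For miR-146a-5p these shares were 45.2% and 41.8%. Counted from 1 at the 5′ end, miR-146a-5p and miR-146b-5p differ by G18A and U21C, with the base of miR-146a first. Which of both miRNAs the inexact reads came from was not tested. MiR-223-3p, a myeloid miRNA, had 3 and 2 reads, and the miR-146 targets Traf6 and Irak1, of which Traf6 was named after its value was seen, had ratios of 0.969 and 1.02 in the mRNA libraries.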

How the data were processed

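The cells were profiled in 4 libraries, 1 mRNA and 1 small RNA library per condition. The deposited tables hold raw read counts per gene symbol or per miRNA precursor arm. The authors aligned trimmed mRNA reads to GRCm38 using STAR 2.5.2b, and small RNA reads of 15 to 31 nucleotides were searched against miRBase 21, per the labels' design text. Trimmomatic 0.36 is also named, per the submitters' processing notes. That text states more mapped reads per sample than the mRNA tables hold. The counting program, annotation and strand use were not given in the sources used here, so overlapping genes and near-identical copies may share reads.

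Whole tables were scaled with edgeR 4.0.16 TMM library sizes in R 4.3.3. Log2 ratios used 1 added count, and intervals are exact conditional binomial 95% intervals. PCR copies are not independent molecules, so intervals cover counting error only. With 1 library per group no test was made. Genes with at least 100 reads in 1 library were counted. Inserted apostrophes were removed from 37 symbols. Levels per kb used the longest coding transcript of GENCODE M1, whose build differs from that of the files. Positions, promoters and mature miRNAs are from RefSeq GRCm38.p6. Other steps used scipy 1.17.1, Biopython 1.88, pandas 2.3.3, numpy 2.4.6 and matplotlib 3.10.9 in Python 3.11.15. The ratios and intervals were tested on simulated data.

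The genes, lists and alternatives were chosen with earlier results of these data known. Every member could be named. Members past 1.5-fold, subunits, inhibitors and the most counted member of each role got full values, and up to 3 genes with the largest absolute log2 ratio were named per further list. Alternatives were 0.5 or 5 added counts, scaling by the total, by DESeq2 1.42.0 or by TMM after dropping the 10 most counted genes, other read minimums, a limit of 2-fold or of an interval entirely past 1.5-fold, the mean, chromosome medians subtracted, and leaving out singled-out or duplicated genes. For H19 and the further lists, and for role groups without singled-out genes, they were added after seeing the data.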

Additional observations from a re-analysis of the deposited data

How the results depend on the processing

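The median log2 ratio of the 48 genes stayed between -0.22 and -0.13 under the 12 alternatives run. The scalings, the added counts and the chromosome medians left 7 genes at least 1.5-fold lower and 0 higher, and 6 of the 7 had an interval entirely past that limit. At least 1.5-fold lower were 3 genes with a minimum of 1000 reads, 3 with a 2-fold limit and 4 without Saa1, Ch25h and Il13ra2, since these settings admit fewer genes. Of all genes 0.105% were at least 2-fold lower. The share of all genes was not computed for the 1000-read minimum, the interval limit or the other scalings, so those counts have no background beside them. Role group medians that moved were -0.37 for the acute phase genes and -0.56 for the adhesion and other induced genes with the mean, and -0.39 for the latter with a minimum of 1000 reads or without Ch25h and Il13ra2. With chromosome medians subtracted the subunits came to -0.11 and the feedback genes to -0.12. For the feedback genes a minimum of 1000 reads gave -0.08 and the mean gave -0.10. MiR-155-5p was at -0.13 scaled to the total count of arm reads. Of 288 values of single genes 279 moved by no more than their counting error, 8 moved further and 1 reversed, Nfkbia to -0.12 with the chromosome median subtracted. The cause was not tested. With 43 and 40 reads, H19 could not show a difference smaller than its counting interval. No paired analysis was possible because each group holds 1 library.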

Other observations

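The genes within 500 kb of a described gene were set beside it, a choice made after seeing the data, leaving out other described genes and requiring at least 100 reads. Around Ccl20 3 such genes had log2 ratios between -0.36 and 0.17, with a median of -0.09, against -0.92 for Ccl20. Around Saa1 9 genes lay between -0.36 and 0.15 with a median of 0.06, against -1.05. Around Icam1 24 genes had a median of 0.02 and ranged from -0.65 to 0.95, against -0.75. Around Ch25h 9 genes had a median of -0.26 and ranged from -0.64 to 0.30, against -1.09. Some lower genes lay near lower neighbours. Ripk2, at -0.36, had 3 such genes between -0.30 and -0.02 with a median of -0.30. Tnfaip3, at -0.37, had 2, at -0.40 and 0.03. Around Nfkbia on chromosome 12 the 7 genes all lay above 0, between 0.09 and 0.45 with a median of 0.17, close to the 0.16 of Nfkbia. Around Tnfaip2 on the same chromosome 14 genes had a median of 0.16, against 0.46.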
